A study of Mus musculus with 8 samples.

Results

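The comparison described here set P14 CD8 T cells that were still receiving antigen or had just received it against P14 cells that had rested without it. The recently stimulated side held the 4 libraries of Effector cells (collected on day 7) and T_Dysf cells (dysfunctional cells, collected on day 19), with 2 libraries each. The rested side held the 4 libraries of Acute-2d and Acute-7d cells, both collected on day 19, again with 2 each. These 8 libraries were all those of the series, and all 24303 genes of the table were compared. P14 cells come from the spleens of mice whose CD8 T cells carry a transgenic receptor specific for GP33, a peptide of the virus LCMV, so all 4 conditions share 1 receptor. All were first activated on plates coated with anti-CD3 and anti-CD28 for 2 days and were sorted before RNA was isolated. Per the study's methods the donors were male or female mice at least 8 weeks old, the activated cells were pooled before the conditions were set up, and all were then kept in medium with IL-2 and IL-15. Acute-2d cells then stayed in medium without peptide. Acute-7d cells received GP33 peptide again until day 7 and then rested. T_Dysf cells kept receiving GP33 until day 19 and were given TGF-β1, a cytokine that restrains T cells, from day 7 on. The labels place Effector cells at day 7 without a protocol line of their own. Each side therefore holds a pair of conditions rather than 4 replicates of one. Effector is the only condition of day 7, T_Dysf is the only one with TGF-β1, and both Effector libraries and Acute-7d replicate 1 carry a library name beginning with RESUB, whose meaning is not given in the sources used here.

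A T cell that meets its antigen signals through its receptor, switches on transcription factors of the NR4A, EGR and AP-1 families, makes cytokines and granzymes, and enters the cell cycle. The same signal puts inhibitory receptors such as PD-1 on the surface, which lower later signalling, so that these receptors mark effector cells as well as exhausted ones. When antigen is withdrawn the cells leave the cycle and regain genes of resting and memory T cells, such as those for the IL-7 receptor and the transcription factors FOXO1 and TCF-1.

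The values are normalized counts, which are read counts per gene that the authors divided by a size factor for each library. Depth followed the sides: the rested libraries (19382147 to 20925296 reads on genes) were all shallower than the recently stimulated ones (22030096 to 24856195). A value worth 3 reads, 2.59 to 3.35 normalized counts depending on the library, was taken as the floor of detection, for counting error only. Differences are given as log2 fold change of recently stimulated over rested on the log2(normalized count + 1) scale, which understates the change of low genes. A gene was called when limma, fitted across all genes with Benjamini-Hochberg adjustment, gave an adjusted p under 0.05 and the change was at least 2-fold. A gene was counted as not overlapping when all 4 libraries of one side lay above all 4 of the other, and its gap is the log2 distance between the nearest libraries of the sides. The T cell markers (Cd3e, Cd8a, Thy1 and 5 others) summed to between 83930 and 190210 normalized counts on the recently stimulated side and to between 97435 and 99586 on the rested side. Of the marker lists for CD4 T, NK, B, plasma, myeloid, dendritic and erythroid cells none had a called member. Without overlap were Cd4 (near the floor), Cd79b and the plasma cell marker Sdc1, all higher, and the NK marker Ncr1, lower. Plasma cell markers summed to 34.1 to 1582 normalized counts against 10.8 to 28.4, led by Igha, and B cell markers to 136 to 178 against 55.8 to 116. The high plasma cell sums were those of T_Dysf, with Igha at 1086 and 1154 there and at 7.31 and 9.03 in Effector. The sums were 1083 to 1451 against 1058 to 1639 for CD4 T cell markers, 1305 to 2598 against 1558 to 4619 for NK, 263 to 579 against 340 to 648 for myeloid, 398 to 3697 against 562 to 1442 for dendritic (mostly Itgax) and 21.3 to 31.3 against 23.6 to 42.6 for erythroid cells. The part of other cells in the results below was not tested.

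Effector and T_Dysf cells had in common a higher level of PD-1 and other inhibitory receptors, the chemokines Ccl3 and Ccl4, granzyme B, Nr4a1, Nr4a2 and the genes of DNA replication and mitosis. Both had in common a lower level of the hypoxia-inducible (HIF) target genes, of glucose transporters, of Myc, and of Klf4, Foxo1, Satb1 and Il7r. The list of HIF targets was drawn up after the values were seen. Limma called 391 genes higher (1.61% of the 24303) and 545 lower (2.24%). Of the 391 higher genes 386 did not overlap, 352 were protein-coding and 26 were pseudogenes. Of the 545 lower genes 532 did not overlap, 398 were protein-coding, 60 were long noncoding RNAs and 52 were pseudogenes. Pseudogenes share sequence with their parent genes, and their counts are uncertain. A wider set of 2218 genes (9.13%) did not overlap with the recently stimulated side higher, and 2371 (9.76%) did not overlap with it lower. An exact two-sided permutation test of 4 against 4 cannot give a p below 0.0286, so separation of the sides in 1 gene is a description. In 128 of the higher and 201 of the lower genes the sides lay at least 1 log2 unit apart.

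The conditions within a side were not alike. A gene had to be at least 2-fold higher in each of Effector and T_Dysf than in each of Acute-2d and Acute-7d to count as shared in every pair of conditions, and 444 genes (1.83%) met this in the higher direction and 662 (2.72%) in the lower. Of the 391 genes called higher 256 met it, and of the 545 called lower 359 did. Effector and T_Dysf lay within 2-fold of each other in 263 of the genes called higher (67.3%) and in 449 of those called lower (82.4%). The same share over all genes was not counted, so these shares are not read as a result. Direct comparison of the 2 conditions called 1155 genes higher in Effector than in T_Dysf (4.75%) and 1086 lower (4.47%). This total of 2241 fell to 386 with a term for the RESUB libraries, to 465 in a fit of these 2 conditions alone and to 585 without T_Dysf replicate 1. Because the spread within a side includes these differences, the 4 against 4 fit gives more room to genes in which Effector and T_Dysf are close; of the genes called higher only 14 were also called above T_Dysf in Effector and 8 below it, and of those called lower 31 and 9. With a mean for each of the 4 conditions in place of 2 sides, so that only replicates give the spread, limma called 909 genes higher and 1080 lower. Leaving out 1 library in turn gave between 104 and 307 higher calls and between 193 and 459 lower ones, fewest without Acute-2d replicate 1.

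Chl1, a cell adhesion molecule of the L1 family best known from neurons, was separated by the widest gap among called protein-coding genes with higher levels and a mean of at least 50, 3.03 log2 units. It lay at 305 and 73.2 normalized counts in Effector, 131 and 185 in T_Dysf, 1.05 and 0 in Acute-2d and 4.46 and 8.08 in Acute-7d. The lowest recently stimulated library was thus many times above the highest rested one, and Acute-2d replicate 2 had no read. The log2 fold change was 5.60 ± 0.80 (SE) (limma, adjusted p = 0.0131), and it was 5.57 for Effector and 5.63 for T_Dysf against the same rested libraries. Clec12a, an inhibitory C-type lectin, lay at 113 and 46.1 normalized counts in Effector, 639.6 and 732 in T_Dysf, 2.11 and 5.4 in Acute-2d and 3.35 and 4.04 in Acute-7d. Its sides were separate, with T_Dysf well above Effector, and its log2 fold change was 5.62 ± 0.94 (SE) (limma, adjusted p = 0.0198). With 1 library left out Clec12a lost its call in 4 of 8 cases.

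The chemokine genes Ccl3 and Ccl4, whose products draw other leukocytes to the site, followed. Ccl3 (chr11:83647844-83649355, mm10) lay at 545 and 805 normalized counts in Effector, 2442 and 2266 in T_Dysf, 59 and 32.4 in Acute-2d and 31.2 and 91.9 in Acute-7d, and it changed by 4.66 ± 0.61 (SE) on the log2 scale (limma, adjusted p = 0.0107). Ccl4 lay at 551 and 616 normalized counts in Effector, 3633 and 3091 in T_Dysf, 75.8 and 91.8 in Acute-2d and 66.9 and 128 in Acute-7d, and it changed by 3.98 ± 0.71 (SE) on the log2 scale (limma, adjusted p = 0.0231). Both were high in all 4 recently stimulated libraries and highest in T_Dysf, and the Effector libraries lay between T_Dysf and the rested side. Rgs8, a regulator that shortens G protein signalling, lay at 339 and 165 normalized counts in Effector, 205 and 187 in T_Dysf, 26.3 and 35.6 in Acute-2d and 21.2 and 34.3 in Acute-7d, with a log2 fold change of 2.86 (limma, adjusted p = 0.00603). Cd200, the ligand of an inhibitory receptor on myeloid cells, lay at 180.0 and 262 normalized counts in Effector, 386 and 399 in T_Dysf, 29.5 and 38.9 in Acute-2d and 26.8 and 23.2 in Acute-7d, with a log2 fold change of 3.28 (limma, adjusted p = 0.00469).

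Other genes of the widest gaps had Effector and T_Dysf within 2-fold of each other. Ptpn5, a tyrosine phosphatase that acts on MAP kinases, lay at 743 and 259.8 normalized counts in Effector, 539 and 481 in T_Dysf, 12.6 and 11.9 in Acute-2d and 27.9 and 56.5 in Acute-7d (log2 4.35, limma adjusted p = 0.0105). Itih5, a heavy chain of an inter-alpha-trypsin inhibitor, lay at 1574 and 861 normalized counts in Effector, 804 and 1198 in T_Dysf, 68.5 and 65.9 in Acute-2d and 105 and 181 in Acute-7d (log2 3.46, limma adjusted p = 0.0072). In both, Acute-7d was the higher of the rested conditions, by 1.62 and 1.03 log2 units. Coro2a, a coronin that binds actin, lay at 9383 and 6952 normalized counts in Effector, 11938 and 11178 in T_Dysf, 602 and 312 in Acute-2d and 1863 and 1898 in Acute-7d (log2 3.42, limma adjusted p = 0.0246). Nek6, a mitotic kinase, lay at 615 and 832 normalized counts in Effector, 882 and 953 in T_Dysf, 122 and 106 in Acute-2d and 192 and 174 in Acute-7d (log2 2.48, limma adjusted p = 0.00473). In Coro2a Acute-7d was higher than Acute-2d by 2.11 log2 units and still under every stimulated library.

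**Figure D1:**
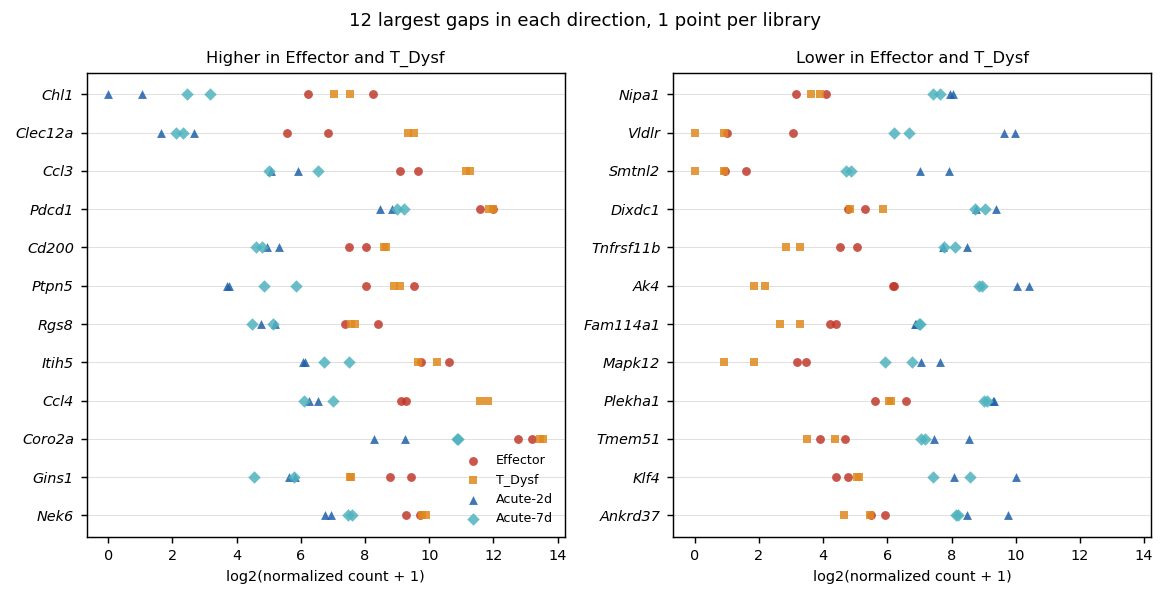
Levels of the 12 protein-coding genes with the widest gap in each direction, among called genes with a mean of at least 50 normalized counts; the x axis is log2(normalized count + 1) and each point is 1 library, with symbol and colour giving the condition. Red and orange points (Effector, T_Dysf) lie on one side and blue ones (Acute-2d, Acute-7d) on the other in every row, with the widest gap of 3.03 log2 units for Chl1 on the left and 3.33 for Nipa1 on the right.

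Inhibitory receptors were among the genes that Effector and T_Dysf cells shared. Of 14 genes in this list 5 were called higher and none lower, 5 did not overlap in the higher direction and 1 in the lower, and the median log2 fold change of the list was 1.16, where the median over all genes was -0.02. The counts of this list and of those below stand against shares over all genes. These were 1.61% called higher, 2.24% called lower, 9.13% without overlap higher and 9.76% without overlap lower. Pdcd1, which encodes PD-1 (chr1:94038305-94052553, mm10, minus strand), lay at 4017 and 3043 normalized counts in Effector, 3754 and 4022 in T_Dysf, 352 and 462 in Acute-2d and 505 and 598 in Acute-7d. Every recently stimulated library held at least 3043 normalized counts and no rested library more than 598, and its log2 fold change was 2.97 ± 0.17 (SE) (limma, adjusted p = 0.00212). Effector and T_Dysf stood at 2.89 and 3.04 log2 units above the rested libraries in it, with a difference between them of -0.15 ± 0.20 (SE) (limma, adjusted p = 0.681). Tigit, a receptor for the ligand CD155, lay at 1860 and 977 normalized counts in Effector, 3097 and 2665 in T_Dysf, 236 and 153 in Acute-2d and 425 and 351 in Acute-7d (log2 2.85 ± 0.46 (SE), limma adjusted p = 0.0182). Havcr2, which encodes Tim3, lay at 2152 and 1173 normalized counts in Effector, 2763 and 3060 in T_Dysf, 311 and 263 in Acute-2d and 484 and 595 in Acute-7d (log2 2.45 ± 0.39 (SE), limma adjusted p = 0.017). In both genes T_Dysf was highest, Effector next, Acute-7d next and Acute-2d lowest, and no libraries of neighbouring conditions in that order overlapped. Lag3, a receptor for MHC class II, separated the sides by a gap of only 0.26, with 4331 and 2711 normalized counts in Effector, 4645 and 4823 in T_Dysf, 1807 and 2270 in Acute-2d and 1415 and 1563 in Acute-7d (log2 1.21, limma adjusted p = 0.0276). Cd101 was also called, with a log2 fold change of 1.22 (limma, adjusted p = 0.0452), of which 0.75 was in Effector and 1.68 in T_Dysf. Cd38, an ectoenzyme that consumes NAD, was not called: it lay at 378 and 204 normalized counts in Effector, 1566 and 1567 in T_Dysf, 152 and 168 in Acute-2d and 153 and 281 in Acute-7d, so that Effector overlapped the rested libraries and T_Dysf stood above Effector (log2 Effector minus T_Dysf -2.49, limma adjusted p = 0.0217). Over the whole list the median was 0.68 log2 units in Effector and 1.57 in T_Dysf, and T_Dysf was called above Effector in 5 members and below it in 2. With 1 library left out the list held 1 to 5 calls, 1 without Acute-2d replicate 1 and 3 without any 1 of Effector replicate 1 and the Acute-7d and T_Dysf libraries, and Cd101 lost its call in 7 of 8 cases and Lag3 in 6.

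Of 10 costimulatory receptors, most of them of the TNF receptor family, 1 was called higher and none lower. In a list this short 1 call is not read as a result about the list (1.61% of all genes were called higher). Tnfrsf9, which encodes 4-1BB, lay at 3207 and 4216 normalized counts in Effector, 2691 and 3009 in T_Dysf, 1329 and 1416 in Acute-2d and 951 and 1323 in Acute-7d (log2 1.38 ± 0.18 (SE), limma adjusted p = 0.0104). Tnfrsf18, which encodes GITR, did not overlap in the other direction, at 1746 and 1482 normalized counts in Effector, 1724 and 1864 in T_Dysf, 2708 and 3315 in Acute-2d and 2267 and 2430 in Acute-7d, and its log2 fold change of -0.64 was under 2-fold. Tnfrsf8, which encodes CD30, was high in Effector alone, at 560.2 and 1024 normalized counts in Effector, 42.3 and 27.6 in T_Dysf, 24.2 and 54 in Acute-2d and 21.2 and 10.1 in Acute-7d, and Cd27 was low in T_Dysf alone, at 2665 and 3263 normalized counts in Effector, 1363 and 1300 in T_Dysf, 2931 and 3280 in Acute-2d and 3079 and 2746 in Acute-7d. Neither of the last pair was called between the sides.

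**Figure D2:**
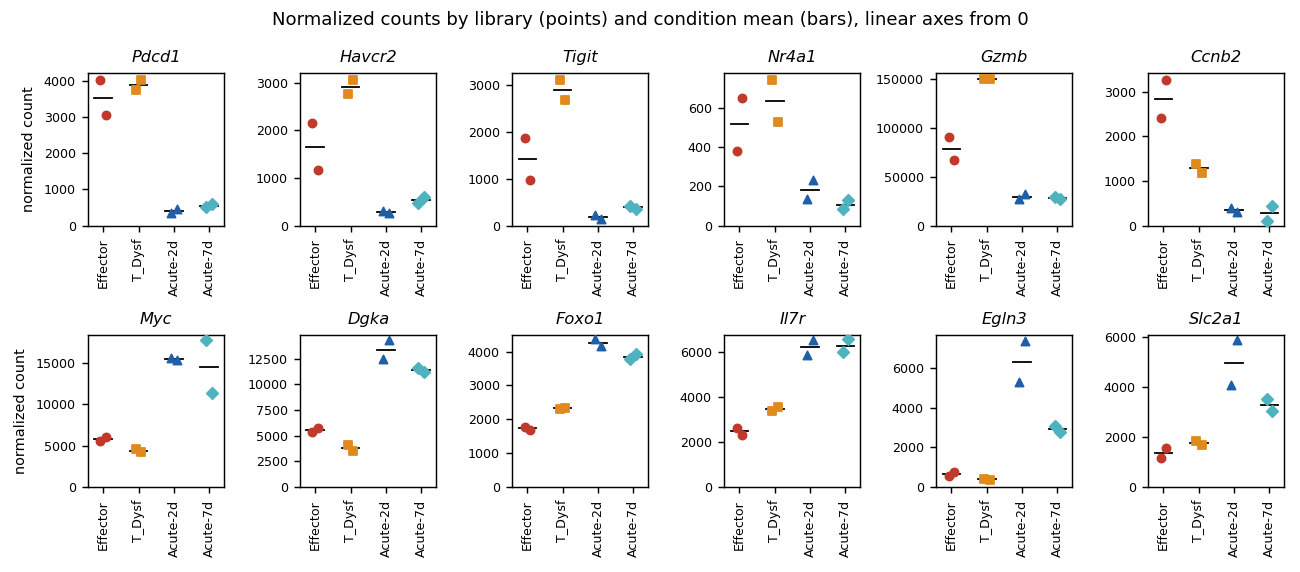
Normalized counts of 12 genes in the 8 libraries, on linear axes that start at 0; each panel is 1 gene, points are libraries, bars are means of the 2 libraries of a condition. The top row holds genes higher in Effector and T_Dysf, such as Pdcd1 with at least 3043 in every stimulated library and at most 598 in every rested one, and the bottom row holds genes lower in them, such as Myc with at most 6009 against at least 11335.

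Among transcription factors that receptor signalling induces, 5 of the 17 measured were called higher and 1 lower. Only 10 of the 17 had a higher mean, and the median log2 fold change was 0.62. Nr4a1, an orphan nuclear receptor used as a reporter of recent receptor signalling, lay at 380.1 and 649 normalized counts in Effector, 742 and 529 in T_Dysf, 135 and 231 in Acute-2d and 83.7 and 128 in Acute-7d (log2 2.04 ± 0.34 (SE), limma adjusted p = 0.0199). Nr4a2, of the same family, lay at 348 and 512 normalized counts in Effector, 1368 and 1282 in T_Dysf, 165 and 73.4 in Acute-2d and 185 and 121 in Acute-7d (log2 2.53 ± 0.53 (SE), limma adjusted p = 0.0368). Tox, a DNA-binding factor needed for the persistence of exhausted cells, lay at 403 and 690.2 normalized counts in Effector, 245 and 234 in T_Dysf, 85.3 and 55.1 in Acute-2d and 51.3 and 107 in Acute-7d (log2 2.30 ± 0.42 (SE), limma adjusted p = 0.0246). Nr4a1 was at a similar level in both stimulated conditions, Nr4a2 was higher in both T_Dysf libraries and Tox in both Effector ones, although neither difference between them was called. Myc, the driver of growth and metabolism after activation (chr15:61985391-61990374, mm10), went the other way. It lay at 5540 and 6009 normalized counts in Effector, 4537 and 4228 in T_Dysf, 15615 and 15287 in Acute-2d and 17721 and 11335 in Acute-7d, so that no rested library came down to the level of a stimulated one, and it fell by 1.56 ± 0.17 (SE) on the log2 scale (limma, adjusted p = 0.00762). The 5 higher calls of this list fell to 0 without Acute-2d replicate 1 and ran from 0 to 4 over the 8 libraries left out in turn, 1 without Acute-2d replicate 2 or either Acute-7d library and 2 without Effector replicate 2 or either T_Dysf library, while Myc stayed called in each. Nr4a2 lost its call in 7 of these 8 cases, Tox in 4 and Nr4a1 in 2.

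Feedback regulators of receptor signalling were split, with 4 of 22 called higher and 3 lower. Rgs16, a regulator of G protein signalling, lay at 1142 and 2262 normalized counts in Effector, 2152 and 2441 in T_Dysf, 654 and 480.3 in Acute-2d and 401 and 490.4 in Acute-7d (log2 1.94, limma adjusted p = 0.0125). Sh2d2a, the adaptor TSAd, did not overlap but changed less than 2-fold, at log2 0.68 (limma, adjusted p = 0.0117). Dgka, the diacylglycerol kinase that ends part of the receptor signal and marks anergic cells, lay at 5397 and 5776 normalized counts in Effector, 4116 and 3523 in T_Dysf, 12438 and 14316 in Acute-2d and 11639 and 11246 in Acute-7d (log2 -1.42 ± 0.18 (SE), limma adjusted p = 0.00933). Socs3, an inhibitor of cytokine signalling, lay at 446 and 483 normalized counts in Effector, 613 and 642 in T_Dysf, 1652 and 2628 in Acute-2d and 2521 and 1407 in Acute-7d (log2 -1.88 ± 0.24 (SE), limma adjusted p = 0.0103). Dgka and Socs3 were thus lower in every stimulated library, and Rgs16 higher in every one.

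Effector molecules were shared less evenly. Of 21 genes 3 were called higher, Ccl3, Ccl4 and Gzmb, and none lower. Gzmb, the serine protease granzyme B, was the most abundant of the 3, at 90949 and 66735 normalized counts in Effector, 149580 and 149510 in T_Dysf, 27601 and 31971 in Acute-2d and 29274 and 27049 in Acute-7d, and it rose by 1.90 ± 0.30 (SE) on the log2 scale (limma, adjusted p = 0.0167). Even its lowest rested library held 27049 normalized counts. Prf1, the pore-forming perforin, lay at 5646 and 3207 normalized counts in Effector, 5876 and 5767 in T_Dysf, 1623 and 1642 in Acute-2d and 2835 and 3591 in Acute-7d, and Effector replicate 2 fell within the range of the rested libraries (limma, adjusted p = 0.0904). Ifng and Gzma were highest in T_Dysf, Ifng at 569 and 838 normalized counts in Effector, 3441 and 3230 in T_Dysf, 311 and 221 in Acute-2d and 859 and 556 in Acute-7d and Gzma at 10176 and 4933 normalized counts in Effector, 380970 and 357780 in T_Dysf, 6610 and 6817 in Acute-2d and 13312 and 10898 in Acute-7d. With 1 library left out the list held 1 to 3 calls, 1 without Acute-2d replicate 1 or either Acute-7d library. Neither Ifng nor Gzma was called between the sides (limma, adjusted p = 0.188 and 0.389), and both were called lower in Effector than in T_Dysf, by log2 -2.27 and -5.70. The median of the list was 0.18 in Effector and 1.88 in T_Dysf against the same rested libraries.

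By number the mitosis and spindle list held the most calls in the 4 against 4 fit, 21 of 38. DNA replication had 13 of 35, where 1.61% of all genes were called higher. HIF targets, a shorter list drawn up after the values were seen, held a larger share, 13 of 19 lower (2.24% of all genes). They also held more calls with the replicate number as a block, 9 against 3 of mitosis and 3 of replication. The same was true without Acute-2d replicate 1 (6 against 0) and with a term for the RESUB libraries (13 against 5 and 7). It held too without any 1 of Effector replicate 1, Acute-2d replicate 2, the Acute-7d libraries and T_Dysf replicate 1. Since the HIF list was drawn up with these values known, its calls cannot be weighed against those of the other lists. All 38 genes of the mitosis and spindle list were higher and did not overlap, with a median log2 fold change of 2.34; 21 were called in the 4 against 4 fit, and all 38 in the fit with 4 condition means. In DNA replication 31 of 35 genes did not overlap in the higher direction, 13 were called, and the median was 1.41. Of the G1/S regulators 6 of 20 were called higher and 1 lower. Effector was further from the rested cells than T_Dysf: the median of the mitosis list was 3.15 in Effector and 1.67 in T_Dysf, and that of the replication list was 2.05 and 0.74. In each library, relative to the mean of the rested ones, the mitosis list had a median of 2.77 and 3.39 in Effector, 1.85 and 1.48 in T_Dysf, 0.41 and 0.04 in Acute-2d, and -1.12 and 0.63 in Acute-7d. The 2 Acute-7d libraries thus differed more than the Acute-2d ones, and Acute-7d replicate 1, a RESUB library, was the lowest. In bulk RNA, more cells in cycle and more RNA per cycling cell cannot be told apart.

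Aurka, a spindle pole kinase, had the smallest p of the mitosis list, at 1038 and 1592 normalized counts in Effector, 778 and 625 in T_Dysf, 215 and 227 in Acute-2d and 148 and 312 in Acute-7d (log2 2.11 ± 0.34 (SE), limma adjusted p = 0.0183). Ccnb2, cyclin B2, which activates CDK1 at the entry to mitosis, lay at 2399 and 3253 normalized counts in Effector, 1387 and 1180 in T_Dysf, 393 and 317 in Acute-2d and 107 and 448 in Acute-7d (log2 2.76 ± 0.54 (SE), limma adjusted p = 0.0305). Ect2, the exchange factor that starts cytokinesis, and Incenp, the scaffold of the Aurora B complex, had log2 fold changes of 2.14 and 1.86 (limma, adjusted p = 0.0214 and 0.0294). In Aurka, Ccnb2, Ect2 and Incenp both Effector libraries stood above both T_Dysf libraries, which stood above all rested ones. Gins1, a subunit of the replicative helicase complex, lay at 439.5 and 683 normalized counts in Effector, 187 and 185 in T_Dysf, 55.8 and 48.6 in Acute-2d and 22.3 and 54.5 in Acute-7d (log2 2.88 ± 0.53 (SE), limma adjusted p = 0.0252). Cdc6, which loads the helicase on origins, lay at 819.6 and 1843 normalized counts in Effector, 508 and 435 in T_Dysf, 169.6 and 107 in Acute-2d and 81.4 and 178 in Acute-7d (log2 2.57 ± 0.50 (SE), limma adjusted p = 0.0307). The histone chaperone Chaf1a and the DNA ligase Lig1 had log2 fold changes of 1.96 and 1.84 (limma, adjusted p = 0.0241 and 0.0281).

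Among the called regulators of the G1/S step 1 was lower. Ccne1, cyclin E1, and E2f8, a repressor of the E2F family, had log2 fold changes of 2.30 and 2.78 (limma, adjusted p = 0.035 and 0.0341). Cdkn1b, which encodes the inhibitor p27 that holds resting T cells in G0, was lower, at 1868 and 1965 normalized counts in Effector, 2472 and 2543 in T_Dysf, 4774 and 6000 in Acute-2d and 4982 and 4672 in Acute-7d (log2 -1.21 ± 0.13 (SE), limma adjusted p = 0.00748). Cdkn2c, the inhibitor p18, was higher, at 902 and 1312 normalized counts in Effector, 858 and 855 in T_Dysf, 458 and 483 in Acute-2d and 354 and 568 in Acute-7d (log2 1.07 ± 0.19 (SE), limma adjusted p = 0.0246). Both libraries of every condition kept to their side in these inhibitors. Of 8 genes of DNA methylation 2 were called higher, Uhrf1 and Hells, which serve its maintenance at replication, with log2 fold changes of 2.81 and 2.12 (limma, adjusted p = 0.0424 and 0.0196). With 1 library left out Uhrf1 lost its call in 8 of 8 cases and Hells in 4. Dnmt1, the maintenance methyltransferase itself, lay at 7132 and 12910 normalized counts in Effector, 4374 and 3798 in T_Dysf, 1862 and 2193 in Acute-2d and 2075 and 2488 in Acute-7d without overlap, and its adjusted p was 0.0559 in the same test. Dnmt3b, a de novo methyltransferase, had no overlap and a log2 fold change of 0.39. The number of calls moved with the settings: of the mitosis list all 38 were called among genes with a mean of at least 50, 5 with a term for the RESUB libraries, 3 with the replicate number as a block, and 0 to 13 with 1 library left out (0 without either Acute-2d library), while the median stayed between 2.00 and 2.67. Of the G1/S regulators 0 to 4 were called higher with 1 library left out (0 without Effector replicate 1, either Acute-2d library or Acute-7d replicate 1, and 1 without Acute-7d replicate 2), 1 with the block and 2 with the RESUB term, while Cdkn1b kept its call in each. Of the replication list 0 to 11 were called with 1 library left out, 0 without any 1 of the Acute-2d or Acute-7d libraries or Effector replicate 1.

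**Figure D3:**
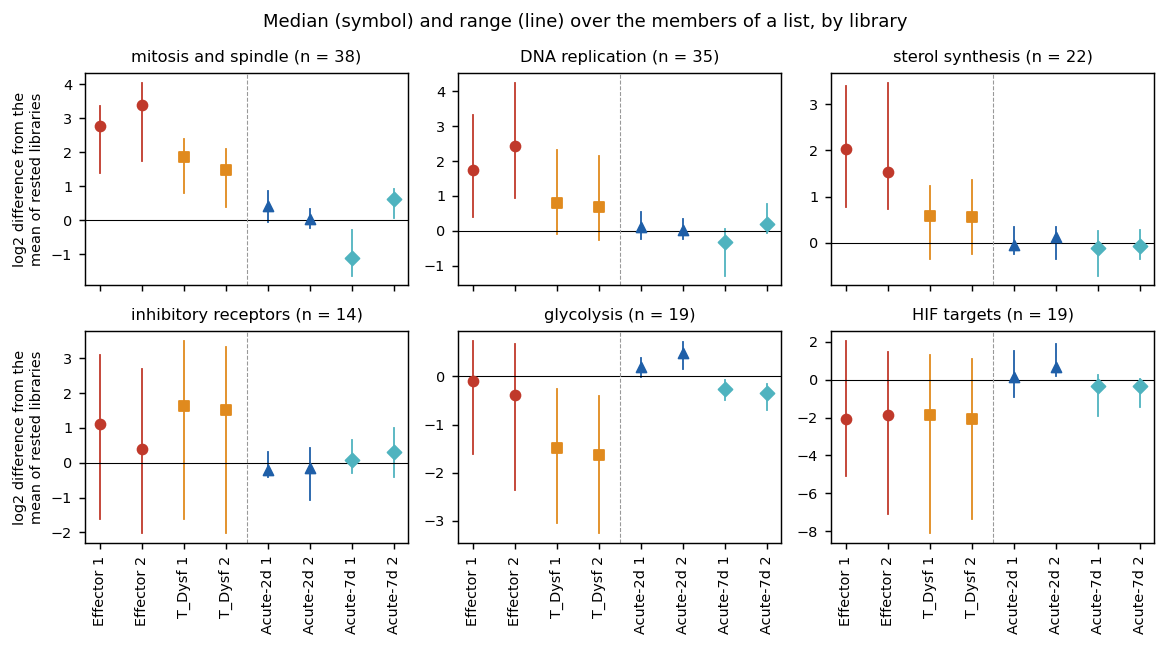
Level of 6 gene lists in each of the 8 libraries, as the log2 difference of each member from its mean over the 4 rested libraries; the symbol is the median over the members, the line runs from the lowest to the highest member, and the dashed line parts the recently stimulated libraries from the rested ones. Mitosis genes have medians of 1.48 to 3.39 in the stimulated libraries and -1.12 to 0.63 in the rested ones, and HIF targets -2.10 to -1.88 against -0.35 to 0.67.

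The start regions of 2 of these genes are printed because members of each list that rose together were searched for a short motif known from cell cycle genes. The sequences are the 250 bases before the RefSeq start (GRCm38.p6), written on the strand of the gene. The letters TTTGAA, the core of the cell cycle homology region (CHR) found in genes of mitosis, are in capitals in Ccnb2 (chr9:70421555-70421804, minus strand), where they begin 167 bases before the start. The E2F site searched was TTTGGCGC, TTTCCCGC or TTTCGCGC, and the match in Cdc6 (chr11:98907901-98908150, plus strand), on the opposite strand, begins 138 bases before the start.
Ccnb2: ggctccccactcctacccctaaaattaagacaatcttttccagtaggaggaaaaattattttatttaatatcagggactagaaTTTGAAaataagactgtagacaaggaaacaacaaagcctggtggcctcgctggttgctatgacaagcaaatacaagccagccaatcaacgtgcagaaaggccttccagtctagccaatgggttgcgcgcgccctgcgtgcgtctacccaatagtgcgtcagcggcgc
Cdc6: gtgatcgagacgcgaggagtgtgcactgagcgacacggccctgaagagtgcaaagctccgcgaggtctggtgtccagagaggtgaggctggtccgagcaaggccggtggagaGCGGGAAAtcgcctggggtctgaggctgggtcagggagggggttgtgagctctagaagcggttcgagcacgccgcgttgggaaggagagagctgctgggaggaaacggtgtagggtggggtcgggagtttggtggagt
On either strand the CHR core was present in 12 of 33 windows of the mitosis list (36.4%), against 12.1% of the 15643 windows of protein-coding genes in the table, and in 4 of 32 windows of the replication list (12.5%). An E2F site was present in 8 of 32 windows of the replication list (25%) and in 1 of 33 of the mitosis list (3.03%), against 2.47% of all. Over all genes called higher the shares were 15.6% for the CHR core and 6.65% for the E2F site. A match of letters is a description, and binding was not measured here. The lists were chosen by function, so their shares describe the lists.

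Sterol synthesis genes stood higher as well. All 22 members of the list had a higher mean, 16 did not overlap, 5 were called higher and none lower, and the median was 1.15. Lss, lanosterol synthase, changed by 1.16 in Effector and 1.16 in T_Dysf, and lay at 1907 and 1349 normalized counts in Effector, 1649 and 1572 in T_Dysf, 692 and 743 in Acute-2d and 778 and 664 in Acute-7d (log2 1.16 ± 0.11 (SE), limma adjusted p = 0.00523). Nsdhl and Msmo1, which remove methyl groups on the way to cholesterol, had log2 fold changes of 1.09 and 1.90 (limma, adjusted p = 0.0164 and 0.036). Ebp, the sterol isomerase, did not overlap and stayed under 2-fold, at 0.70 (limma, adjusted p = 0.007). Effector stood above T_Dysf in much of this list, being called higher in 15 of 22 members, with medians of 1.86 and 0.57 against rested cells. The 5 calls became 1 without Acute-2d replicate 1, 3 without Effector replicate 1 or T_Dysf replicate 2, 2 without any 1 of Effector replicate 2, Acute-2d replicate 2 and the Acute-7d libraries, and 2 with the replicate number as a block. The letters TCACNCCAC, a form of the sterol regulatory element, were in 1 of 18 windows of the list and in 1.01% of all.

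Genes of the endoplasmic reticulum, which fold secreted and membrane proteins, were examined after their values had been seen. Of 18 genes 2 were called higher, 11 did not overlap higher and 1 lower. Over all genes 1.61% were called higher, 9.13% did not overlap higher and 9.76% lower. Sdf2l1, part of a chaperone complex with BiP, lay at 1170 and 1877 normalized counts in Effector, 1332 and 1602 in T_Dysf, 344 and 417 in Acute-2d and 382 and 388 in Acute-7d (log2 1.94 ± 0.15 (SE), limma adjusted p = 0.0032). Manf, a secreted factor of the unfolded protein response, lay at 3376 and 4428 normalized counts in Effector, 3504 and 3716 in T_Dysf, 1819 and 1890 in Acute-2d and 1724 and 1941 in Acute-7d (log2 1.02 ± 0.09 (SE), limma adjusted p = 0.00469). In both genes Effector and T_Dysf libraries interleaved.

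Among the lower genes the widest gaps in the set with a mean of at least 50 were in Nipa1, Vldlr and Smtnl2. Nipa1, a magnesium transporter, lay at 16.1 and 7.8 normalized counts in Effector, 11.3 and 14.1 in T_Dysf, 262 and 248 in Acute-2d and 171 and 198 in Acute-7d (log2 -4.07 ± 0.27 (SE), limma adjusted p = 0.00274). Its gap was 3.33 log2 units, and the stimulated libraries did not differ beyond 2-fold by condition. Vldlr, a receptor for very low density lipoproteins, lay at 7.31 and 1 normalized counts in Effector, 0 and 0.89 in T_Dysf, 795 and 1010 in Acute-2d and 72.5 and 99.97 in Acute-7d (log2 -6.88, limma adjusted p = 0.0183). Smtnl2, a smoothelin-like protein, lay at 0.914 and 2.01 normalized counts in Effector, 0 and 0.89 in T_Dysf, 129.5 and 243 in Acute-2d and 27.9 and 25.2 in Acute-7d, so that no stimulated library passed 3 reads. The mean of the 4 rested libraries, 106 normalized counts, was at least 38.7-fold higher than that floor averaged over the stimulated libraries (2.75), and Acute-2d carried this mean. In Vldlr and Smtnl2 Acute-2d stood above Acute-7d, by -3.38 and -2.70 log2 units in Acute-7d minus Acute-2d. Of the 545 genes called lower, Acute-7d was lower than Acute-2d in 360. Of the 391 called higher, Acute-7d was higher than Acute-2d in 191. The same count over all genes was not made.

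Dixdc1, a regulator of Wnt signalling, lay at 38.4 and 26.1 normalized counts in Effector, 57 and 27.6 in T_Dysf, 429.7 and 673 in Acute-2d and 529 and 426 in Acute-7d (log2 -3.79, limma adjusted p = 0.00303). Plekha1, which binds phosphoinositides at the membrane, lay at 48.4 and 94.3 normalized counts in Effector, 68.6 and 64.9 in T_Dysf, 633 and 625 in Acute-2d and 552 and 518 in Acute-7d (log2 -3.09, limma adjusted p = 0.00254). In Effector and T_Dysf the changes were -3.95 and -3.64 for Dixdc1, and -3.08 and -3.10 for Plekha1. Tnfrsf11b, the decoy receptor osteoprotegerin, Fam114a1 and Mapk12, the p38γ kinase, were lowest in T_Dysf, with log2 fold changes against rested cells of -3.24, -2.64 and -3.52 in Effector and -4.96, -3.97 and -5.46 in T_Dysf. Tmem51, a membrane protein, was lower by a like amount in both, -3.26 and -3.62. All 6 genes of this paragraph were called between the sides by limma, with adjusted p from 0.00254 for Plekha1 to 0.0151 for Mapk12.

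Hypoxia-inducible factor targets were lower in both stimulated conditions, by nearly the same median. HIF is the transcription factor that is degraded when oxygen is present and that drives glycolysis, angiogenesis and the prolyl hydroxylases that limit it. This list too was drawn up after the values had been seen, and Ak4 and Ankrd37 are among the widest gaps, so its counts are a description. Of 19 genes measured 13 were called lower and none higher, 15 did not overlap in the lower direction, 2 had a higher mean, 10 were lower in every pair of conditions by 2-fold, and the median was -1.84. The median was -1.98 in Effector and -1.99 in T_Dysf against the same rested libraries. Egln3, a HIF prolyl hydroxylase (chr12:54178981-54203860, mm10), lay at 581 and 749 normalized counts in Effector, 431 and 342 in T_Dysf, 5315 and 7360 in Acute-2d and 3077 and 2801 in Acute-7d (log2 -3.09 ± 0.39 (SE), limma adjusted p = 0.00943). Egln1, the main enzyme of that family, lay at 2392 and 2098 normalized counts in Effector, 1920 and 2009 in T_Dysf, 5959 and 6578 in Acute-2d and 4318 and 4176 in Acute-7d (log2 -1.30, limma adjusted p = 0.0105). P4ha1, a collagen prolyl hydroxylase, lay at 987 and 879 normalized counts in Effector, 969 and 935 in T_Dysf, 4684 and 5486 in Acute-2d and 3176 and 3461 in Acute-7d (log2 -2.12 ± 0.18 (SE), limma adjusted p = 0.00382). In each of these 3 genes Acute-2d was highest, Acute-7d next, and the stimulated conditions lowest.

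Stc2, the secreted glycoprotein stanniocalcin-2, lay at 508 and 378 normalized counts in Effector, 290.0 and 389 in T_Dysf, 2158 and 2974 in Acute-2d and 2968 and 2022 in Acute-7d (log2 -2.70 ± 0.21 (SE), limma adjusted p = 0.00306). Ankrd37, an ankyrin repeat protein, lay at 43.9 and 59.2 normalized counts in Effector, 43.2 and 24 in T_Dysf, 355 and 865 in Acute-2d and 291 and 282 in Acute-7d (log2 -3.27 ± 0.44 (SE), limma adjusted p = 0.0115). Ak4, a mitochondrial adenylate kinase, lay at 73.1 and 71.7 normalized counts in Effector, 2.59 and 3.56 in T_Dysf, 1058 and 1370 in Acute-2d and 494 and 458 in Acute-7d (log2 -5.46 ± 1.19 (SE), limma adjusted p = 0.0398). Ak4 differed between the stimulated conditions, being higher in Effector than in T_Dysf by 4.18 ± 0.19 (SE) log2 units (limma, adjusted p = 0.00159), while Stc2 and Ankrd37 did not pass that test. With 1 library left out the list held 6 to 10 calls, fewest without Acute-2d replicate 1.

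The start regions of 3 of these genes are shown with the core of the hypoxia response element, ACGTG, in capitals on either strand, from the same RefSeq windows. Ankrd37 (chr8:45999851-46000100, minus strand) holds a pair of matches, 241 and 6 bases before the start, Egln3 (chr12:54203875-54204124, minus strand) holds 1 at 229, and P4ha1 (chr10:59323046-59323295, plus strand) holds 1 at 16, on the opposite strand.
Ankrd37: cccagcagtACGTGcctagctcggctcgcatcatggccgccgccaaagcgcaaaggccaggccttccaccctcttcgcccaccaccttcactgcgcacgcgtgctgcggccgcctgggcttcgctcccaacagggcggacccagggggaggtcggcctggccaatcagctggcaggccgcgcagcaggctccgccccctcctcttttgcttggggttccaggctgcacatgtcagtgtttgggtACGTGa
Egln3: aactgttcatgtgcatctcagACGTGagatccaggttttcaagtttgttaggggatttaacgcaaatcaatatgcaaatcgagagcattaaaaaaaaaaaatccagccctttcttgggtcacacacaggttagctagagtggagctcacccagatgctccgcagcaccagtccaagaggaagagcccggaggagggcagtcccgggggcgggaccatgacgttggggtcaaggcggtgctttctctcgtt
P4ha1: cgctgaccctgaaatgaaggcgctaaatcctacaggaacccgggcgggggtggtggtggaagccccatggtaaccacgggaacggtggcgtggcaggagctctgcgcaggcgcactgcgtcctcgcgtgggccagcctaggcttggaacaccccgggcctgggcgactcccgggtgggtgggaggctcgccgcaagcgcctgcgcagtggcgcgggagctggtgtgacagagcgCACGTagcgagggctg
The core was in 12 of 26 windows of the HIF list (46.2%), which come from 17 genes, in 22.9% of the windows of all genes called lower, in 19.1% of those called higher and in 19.9% of all windows. With 5 letters it is a common match. The list was made of HIF targets, so its share describes the choice of genes and is not a result of these data.

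The transcripts of a pair of glucose transporters and of 3 glycolysis enzymes were lower too. Slc2a1, the glucose transporter GLUT1, lay at 1164 and 1545 normalized counts in Effector, 1848 and 1673 in T_Dysf, 4078 and 5872 in Acute-2d and 3513 and 3058 in Acute-7d (log2 -1.38 ± 0.23 (SE), limma adjusted p = 0.0201), and Slc2a3, GLUT3, lay at 5629 and 3910 normalized counts in Effector, 3211 and 3406 in T_Dysf, 11937 and 15571 in Acute-2d and 7732 and 7735 in Acute-7d (log2 -1.38 ± 0.29 (SE), limma adjusted p = 0.0361). Both were lower in every stimulated library, and they were the 2 called members of 12 nutrient transporters, of which 0 to 2 were called with 1 library left out (0 without Acute-2d replicate 1) and Slc2a3 lost its call in 7 of 8 cases. Of 19 glycolysis genes 3 were called lower and none higher, 7 did not overlap in the lower direction, and the median was -0.90. Pdk1, the kinase that keeps pyruvate from the mitochondria, lay at 2453 and 2018 normalized counts in Effector, 915 and 786 in T_Dysf, 9586 and 11050 in Acute-2d and 5383 and 5629 in Acute-7d (log2 -2.45 ± 0.45 (SE), limma adjusted p = 0.0262). Pfkl and Pfkp, phosphofructokinases, had log2 fold changes of -1.77 and -1.26 (limma, adjusted p = 0.0245 and 0.0396). The list was lower in T_Dysf (median -1.57) than in Effector (-0.34), and Effector was called above T_Dysf in 11 of its 19 genes. In each library the median was -0.09 and -0.38 in Effector, of which the first lay within the range of the rested libraries (-0.34 to 0.49) and the second just under it, and -1.49 and -1.63 in T_Dysf. No glycolysis gene was called without any 1 of the Acute-2d or Acute-7d libraries or T_Dysf replicate 1, and 1 was called without T_Dysf replicate 2 or with the replicate number as a block.

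Factors of memory and quiescence were lower when the stimulated libraries were pooled: all 19 had a lower mean, 9 did not overlap, 4 were called and the median was -1.01. In single libraries some members stood above the rested mean, 2 and 4 in Effector and 2 and 3 in T_Dysf. Klf4, a factor that holds CD8 T cells out of cycle, lay at 26.5 and 20.1 normalized counts in Effector, 31.9 and 33.8 in T_Dysf, 1037 and 269.9 in Acute-2d and 377 and 169.6 in Acute-7d (log2 -3.69 ± 0.54 (SE), limma adjusted p = 0.0144). Foxo1, which drives Il7r and lymph node homing genes, lay at 1776 and 1692 normalized counts in Effector, 2299 and 2344 in T_Dysf, 4372 and 4154 in Acute-2d and 3770 and 3918 in Acute-7d (log2 -1.01 ± 0.13 (SE), limma adjusted p = 0.00943). Satb1, a chromatin organizer, lay at 3480 and 3391 normalized counts in Effector, 2546 and 2494 in T_Dysf, 7625 and 7394 in Acute-2d and 5805 and 5862 in Acute-7d (log2 -1.17 ± 0.16 (SE), limma adjusted p = 0.0117). These 3 were lower in both stimulated conditions. The list held 2 calls without either Acute-2d library and 3 or 4 without any other. Foxp1, which keeps naive T cells quiescent, was not overlapping and changed less than 2-fold, at log2 -0.65 (limma, adjusted p = 0.0125).

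The factors best known for memory differed between the stimulated conditions. Tcf7, which encodes TCF-1, lay at 2178 and 8065 normalized counts in Effector, 161 and 122 in T_Dysf, 17888 and 18473 in Acute-2d and 9991 and 7789 in Acute-7d. T_Dysf was far below the rest, Effector replicate 2 lay within the Acute-7d range, and the sides were not called apart (limma, adjusted p = 0.131). Lef1 and Klf2 did not overlap between the sides and were not called either, with Lef1 at 2046 and 2077 normalized counts in Effector, 198 and 137 in T_Dysf, 3454 and 3297 in Acute-2d and 2281 and 2846 in Acute-7d and Klf2 at 1231 and 1104 normalized counts in Effector, 104 and 133 in T_Dysf, 1922 and 2384 in Acute-2d and 1868 and 1582 in Acute-7d. Against the same rested libraries Tcf7 was at log2 -1.59 in Effector and -6.49 in T_Dysf, Lef1 at -0.51 and -4.15, and Klf2 at -0.72 and -4.02. Each of Tcf7, Lef1 and Klf2 was called higher in Effector than in T_Dysf (limma, adjusted p = 0.0131, 0.00233 and 0.00225). The homing list had no call by limma in 16 genes, and 5 lower at an unadjusted p under 0.05 and 2-fold: S1pr1, the receptor for exit from lymph nodes, lay at 2035 and 1480 normalized counts in Effector, 68.2 and 89 in T_Dysf, 3070 and 3918 in Acute-2d and 3576 and 3391 in Acute-7d, and Cxcr4 at 196 and 331 normalized counts in Effector, 44 and 51.6 in T_Dysf, 637 and 950.0 in Acute-2d and 438 and 377 in Acute-7d.

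Cytokine receptors were lower where called, in 3 of 19 genes. Il4ra, the IL-4 receptor chain, lay at 3869 and 4332 normalized counts in Effector, 3098 and 3207 in T_Dysf, 10781 and 11399 in Acute-2d and 9968 and 8366 in Acute-7d (log2 -1.49 ± 0.14 (SE), limma adjusted p = 0.00555). Il7r, the survival receptor of resting T cells, lay at 2636 and 2314 normalized counts in Effector, 3374 and 3560 in T_Dysf, 5885 and 6546 in Acute-2d and 5993 and 6576 in Acute-7d (log2 -1.09 ± 0.15 (SE), limma adjusted p = 0.0115). Ifngr1, an interferon-γ receptor chain, had a log2 fold change of -1.03 (limma, adjusted p = 0.0265). Il2rb, the chain shared by the IL-2 and IL-15 receptors, was the only member without overlap in the higher direction, at 30806 and 29314 normalized counts in Effector, 36512 and 40886 in T_Dysf, 17900 and 20556 in Acute-2d and 22893 and 20906 in Acute-7d and under 2-fold. In Il7r T_Dysf lay between Effector and the rested libraries, and in Il4ra below Effector.

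Survival genes and small GTPases had few calls, where over all genes 1.61% were called higher and 2.24% lower. With 1 call in each list, the counts are not read as results about the lists. Bcl2, the antiapoptotic protein that IL-7 sustains, lay at 9259 and 8001 normalized counts in Effector, 7991 and 8830 in T_Dysf, 16382 and 14631 in Acute-2d and 13594 and 15238 in Acute-7d, without overlap and under 2-fold (log2 -0.81, limma adjusted p = 0.00696). Bak1, a proapoptotic effector, was higher without overlap at log2 0.97, and Bcl2a1d, an antiapoptotic relative, was the 1 called member of 13 in the Bcl2 family, at log2 1.94 (limma, adjusted p = 0.0117 and 0.0225). Bcl2a1d has near-identical copies among which reads may be split, and with 1 library left out it lost its call in 5 of 8 cases. Gimap3, a GTPase of lymphocyte survival, was the 1 called member of 8 in its family, at 15958 and 10648 normalized counts in Effector, 18525 and 17709 in T_Dysf, 33756 and 31686 in Acute-2d and 30645 and 34794 in Acute-7d (log2 -1.09, limma adjusted p = 0.021), and it too lost its call in 5 of 8 cases.

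**Figure D4:**
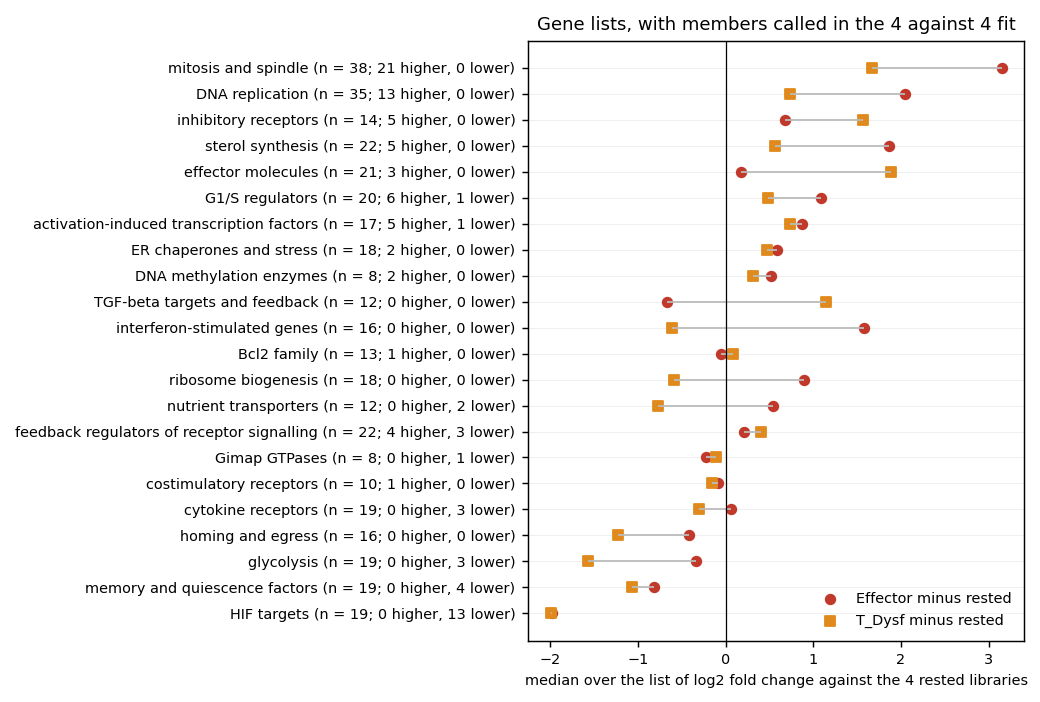
Median log2 fold change of 22 gene lists in Effector (red circles) and T_Dysf (orange squares), each against the same 4 rested libraries; labels give the number of genes measured and the number called higher or lower in the 4 against 4 fit. Mitosis, DNA replication and inhibitory receptors lie to the right in both conditions and HIF targets to the left in both (-1.98 and -1.99), while interferon-stimulated genes (1.58 and -0.61) lie on opposite sides of 0.

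In several lists without a call between the sides, Effector and T_Dysf lay on opposite sides of the rested level. None of 16 interferon-stimulated genes was called or separated the sides, the median being 1.58 in Effector and -0.61 in T_Dysf against the same rested libraries. Isg15, a ubiquitin-like protein induced by interferon, lay at 725 and 1819 normalized counts in Effector, 81.1 and 127 in T_Dysf, 74.8 and 78.8 in Acute-2d and 137 and 67.7 in Acute-7d. None of 18 ribosome biogenesis genes was called and 1 did not overlap, with medians of 0.89 and -0.59. Nop2, a nucleolar RNA methyltransferase, lay at 2286 and 2687 normalized counts in Effector, 776 and 745 in T_Dysf, 827 and 936 in Acute-2d and 974 and 940.1 in Acute-7d. None of 12 genes of the TGF-β response was called, with medians of -0.67 in Effector and 1.14 in T_Dysf, the only condition that received TGF-β1. Itgae, which encodes CD103, lay at 80.4 and 50.2 normalized counts in Effector, 40456 and 37825 in T_Dysf, 101.1 and 100.4 in Acute-2d and 71.4 and 73.7 in Acute-7d. At an unadjusted p under 0.05 and 2-fold, limma still gave 0 genes in each of these 3 lists, where over the whole table it gave 1008 higher and 1491 lower, and with 4 condition means it called 4 genes of the TGF-β list and 1 of the interferon list higher.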

How the data were processed

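Poly(A)-selected RNA of sorted P14 cells gave 8 libraries, 2 for each of 4 conditions. The authors used Partek Flow to align to mm10 (STAR), to quantify against RefSeq transcripts and to scale by the DESeq2 median ratio, and deposited 1 table of 24303 genes, of which 11128 have a maximum under 50 in spite of the filter in their methods. The deposited values are a signal, estimated counts divided by a size factor, called normalized counts here. No column was left out. Between 53.3% and 75.8% of values under 1000 reads were whole multiples (within 0.02) of the most frequent low value, taken as 1 read, so that whole reads could not be rebuilt for nearly all genes and no count model was used.

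The test was limma (3.58.1, R 4.3.3; lmFit, eBayes with trend) on log2(normalized count + 1), all genes, two-sided, with the 8 libraries as 2 sides and 6 residual degrees of freedom; the Effector against T_Dysf contrast came from a fit of 4 condition means. A call needed a 2-fold change and a Benjamini-Hochberg adjusted p under 0.05. The 2-fold threshold is that of the study's methods. The procedure was run on simulated data in which the conditions of a side did not differ. It therefore does not check the pooled fit where they do differ, as they did here. The study calls the 2 libraries of a condition biological replicates without naming separate animals or cultures, so p-values measure the spread between these libraries.

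Genes named are the 12 called, non-overlapping protein-coding genes with the widest gap in each direction and a mean of at least 50, the 4 members of each of 20 function lists with the smallest p, and members that the RNA-Seq text of the study names. The comparison, members and lists were chosen with earlier results of these data known. The lists of HIF targets and of ER chaperones, and the alternative of protein-coding genes alone, were added after these values were seen. Alternatives were pseudocounts of 0.1 and 10, filters on the mean or maximum, 3 rescalings, a RESUB term, a replicate block, no trend, other thresholds, 4 condition means, a fit of Effector and T_Dysf alone, a minimum gap and leaving out each library. Replicate numbers were not taken as pairs. Gene positions came from GENCODE vM21 and start regions from RefSeq (GRCm38.p6), which matched 99 of 123 genes under the naming rule. Figures and tables used Python 3.11.15, pandas 2.3.3, numpy 2.4.6 and matplotlib 3.10.9.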

Additional observations from a re-analysis of the deposited data

Results flagged for a closer look

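Between Effector and T_Dysf cells 23 of the 94 genes named in the text differed by at least 2-fold with an adjusted p under 0.05 (limma, Benjamini-Hochberg, 4 condition means), so their change against the shared rested libraries was not the same in both; 17 were higher in Effector and 6 in T_Dysf, and 10 of the 23 were called between the sides all the same. In log2 units of Effector minus T_Dysf, the genes higher in T_Dysf were Itgae (-9.24), Gzma (-5.70), Clec12a (-3.22), Ccl4 (-2.52), Cd38 (-2.49) and Ifng (-2.27). Genes of memory, homing and costimulation higher in Effector were Tcf7 (4.89), S1pr1 (4.46), Tnfrsf8 (4.43), Lef1 (3.64), Klf2 (3.30), Cxcr4 (2.39) and Cd27 (1.15). The interferon-stimulated Isg15 (3.48), the nucleolar Nop2 (1.70), and the cell cycle genes Ccne1 (1.63) and Incenp (1.20) were also higher in Effector. So were Ak4 (4.18), Tnfrsf11b (1.72), Pdk1 (1.39), Fam114a1 (1.33) and Pfkl (1.03), which were below the rested level in both, and Msmo1 (1.32) of sterol synthesis, which was above it. Day of collection and TGF-β1 cannot be told apart in these differences. Both Effector libraries and neither T_Dysf library carry the RESUB prefix, and a term for it, which only the Acute-7d pair informs, left 386 of 2241 in number over all genes.

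In 8 of 188 sides tested, 1 library of 4 stood apart by Dixon's criterion on the log2 scale, where chance flags about 1 in 20 groups. On the recently stimulated side these were Effector replicate 2 in Prf1 (lowest, 3207 normalized counts) and in Cdkn2c (highest, 1312), and Effector replicate 1 in Rgs16 (lowest, 1142) and in Foxp1 (lowest, 2677). On the rested side they were Acute-7d replicate 1 in Gins1 (lowest, 22.3) and in Bak1 (lowest, 1294), Acute-7d replicate 2 in Cd38 (highest, 281), and Acute-2d replicate 2 in Dnmt3b (lowest, 287).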

How the results depend on the processing

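No gene named in the text changed direction under any of 15 processing alternatives or with any 1 of the 8 libraries left out. Most of these genes were chosen by gap or by p, and a gene without overlap cannot change direction when 1 library is left out. Changed thresholds, the fit without trend, the replicate block and the 4 condition means leave the fold change as it was. The looser thresholds also cannot lose a call. Of the 71 named genes that were called, 988 of 1065 alternative values kept the call, and 50 of the 77 losses came from an adjusted p under 0.01. With 1 library left out 394 of 568 values kept the call, 174 lost it, and 30 of the 71 genes kept it throughout. Among the others, Clec12a, Ccl4, Coro2a and Foxo1 lost it in 4 of the 8 cases, Gins1 in 5, and Ak4, Ifngr1 and Pdk1 in 6. Genes called between the sides numbered 936 and became 150 at an adjusted p under 0.01, 2499 at an unadjusted p under 0.05, 1977 with no minimum fold change and 1989 with 4 condition means, which rest on thresholds and on the error term by construction, and 297 to 766 with 1 library left out (297 without Acute-2d replicate 1, 408 without Acute-2d replicate 2, 419 without Acute-7d replicate 2, 446 without Acute-7d replicate 1, 616 without Effector replicate 1). Genes without overlap numbered 4589, or 329 at a gap of at least 1 and 5164 to 5570 with 1 library left out. Genes past 2-fold in all 4 pairs numbered 1106, and 555 with a pseudocount of 10, 508 with a mean and 643 with a maximum of at least 50, and 996 to 1204 with 1 library left out; quantile normalization moved the higher share from 40.1% to 52.6%. Genes called between Effector and T_Dysf numbered 2241, and 386 with a term for RESUB libraries, 465 in a fit of those conditions alone, 592 at an adjusted p under 0.01, 4060 at an unadjusted p under 0.05, 3787 with no minimum fold change, and 585 (without T_Dysf replicate 1) to 2484 with 1 library left out, 1256 without Effector replicate 2; causes were not tested.

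With a replicate block the calls between the sides fell to 560, of which 538 were among the 936, and 15 of the 71 named calls were lost; the numbers share no stated litter or day, and replicate differences correlated across genes at -0.199 to 0.197 between conditions. Equal 75th percentiles gave 311 higher and 652 lower calls, 32.3% higher against 41.8%, while a mean of at least 50 gave 511 and 500 (50.5% higher), a maximum of at least 50 gave 544 and 590 (48.0%) and quantile normalization gave 448 and 474 (48.6%). No scaling moved the median of all genes past 0.1 log2 units. Protein-coding genes alone, added after the data were seen, gave 474 higher and 505 lower calls. With 2 libraries per condition no pair of conditions can pass an exact test at 0.05.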
